A study of Mus musculus with 12 samples.

Results

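Collagens are the main fibrous proteins of the extracellular matrix, and the 44 mouse genes described here are those whose symbol has the form Col, number, a, number, out of 55487 genes in the whole-genome count table. They were measured by RNA-seq of polyA RNA in 12 libraries of female embryonic stem (ES) cells, pluripotent cells that grow in culture, from a C57BL6/CAST hybrid. The 4 groups of 3 libraries were wild type at day 0, wild type at day 7, SIRT7-KO at day 0 and SIRT7-KO at day 7, where SIRT7-KO names a knockout of Sirt7, which encodes a nuclear deacylase of the sirtuin family. Day 0 is taken here as cells kept in leukaemia inhibitory factor (LIF), a cytokine that holds ES cells undifferentiated. Day 7 is taken as cells collected after 7 days without it. The hybrid background and the sex were common to all groups. The labels do not say which bases of Sirt7 were deleted, whether each genotype was 1 clone, or whether replicates were separate cultures, so p-values measure the spread between these libraries, which may be technical. The labels' treatment entry, LIF or None, was the same at both days of a replicate, and the day entry was used for grouping. The treatment entry followed replicate and genotype, not the day, so it does not bear out the account of LIF given above. Taken as written, the entry varied among the libraries of a day with replicate and genotype. Whether LIF in fact differed between the genotypes of a day cannot be told from the labels. The part of LIF in the genotype comparisons was not tested.

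Each collagen molecule is a triple helix of 3 chains, made of 1, 2 or 3 kinds of chain, and the chains are encoded by separate genes. The families differ in what they build: fibril-forming collagens make the striated fibres of skin, bone and cartilage, collagen IV makes the sheet of basement membranes, collagen VI makes beaded filaments around cells, and fibril-associated collagens coat the fibres. In the early embryo and in differentiating ES cells, basement membrane collagens are known from the endoderm and the epiblast, and fibrillar collagens from mesenchyme. By these families the genes fell into 11 fibril-forming, 6 basement membrane, 6 beaded filament, 9 fibril-associated, 3 hexagonal network, 1 anchoring fibril, 4 transmembrane, 2 multiplexin and 2 other members.

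Library totals ran from 25190483 to 69079368 counts, of which collagen genes took 13671 to 273494. The 7 markers of undifferentiated ES cells that were listed, Oct4 (Pou5f1) and Nanog among them, summed to 6564 to 6968 CPM (counts scaled to the effective size of the library) in the day 0 libraries labelled knockout and to 6670 to 6818 CPM in wild type, and to 290.0 to 299.7 and 266.5 to 299.1 CPM at day 7. Sirt7 itself was higher in every library labelled knockout than in every wild-type library of the same day, at 19.2, 23.8 and 16.9 against 12.7, 8.03 and 10.3 CPM at day 0 (edgeR adjusted p = 0.182) and 25.1, 20.1 and 23.8 against 10.2, 10.6 and 15.3 CPM at day 7 (edgeR adjusted p = 0.299). Counts over the whole gene do not check a deletion whose position is not given, and the groups are called wild type and labelled knockout throughout.

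The first question was how much collagen RNA the cells held at each day. Collagen genes took 0.0584 ± 0.00433% of all counts in wild type at day 0 and 0.370 ± 0.0344% at day 7 (SD, n = 3), and 0.0677 ± 0.00683% and 0.365 ± 0.0251% in the libraries labelled knockout. The share was therefore 6.33 times higher at day 7 in wild type and 5.39 times higher in the libraries labelled knockout, with no overlap between days, while at day 7 the genotypes overlapped. Exact two-sided permutation tests gave p = 0.1 for each day comparison and for genotype at day 0, the smallest p that 3 against 3 libraries allow (0.133 after Benjamini-Hochberg adjustment over 4 comparisons), and p = 0.8 for genotype at day 7. The totals include Col4a1, whose count in a second deposited table, described below, was 0.528 to 2.52 times the count used here. The day ratios and the genotype difference at day 0 were not recomputed with that table and are uncertain in this respect. At day 0 its Col4a1 count was 2.1, 2.52 and 2.17 times the count used in wild type. In the libraries labelled knockout it was 0.832, 1.56 and 1.6 times. That table thus raises Col4a1 more in wild type, and the lack of overlap between genotypes at day 0 may not hold with it. In bulk RNA, more cells of a collagen-making type and more collagen RNA per cell cannot be told apart.

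The make-up of the collagen RNA also differed between the days. On the scale of CPM per kb of the main coding transcript, which allows genes to be compared, Col18a1 alone held 65.1 ± 1.48% of the summed collagen level in wild type at day 0 and 67.1 ± 3.14% in the libraries labelled knockout. It encodes the basement membrane proteoglycan core that yields endostatin. Fibril-associated collagens held 13.7% and 8.94%, nearly all of it Col9a2, and basement membrane collagens held 11.5% and 14.3%. At day 7, fibril-forming collagens held 53.2 ± 2.81% in wild type and 47.3 ± 3.14% in the libraries labelled knockout, basement membrane collagens held 35.3 ± 3.32% and 41.2 ± 4.20%, and Col18a1 had dropped to 7.80% and 7.49%. The 5 highest genes made up 92.4% of the summed level in both genotypes at day 0 (Col18a1, Col9a2, Col4a1, Col4a2 and Col5a1) and 88.6% and 88.9% at day 7 (Col1a1, Col4a1, Col4a2, Col5a1 and Col18a1). All these shares, those of the basement membrane collagens most, rest on the same uncertain counts of Col4a1.

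**Figure D1:**
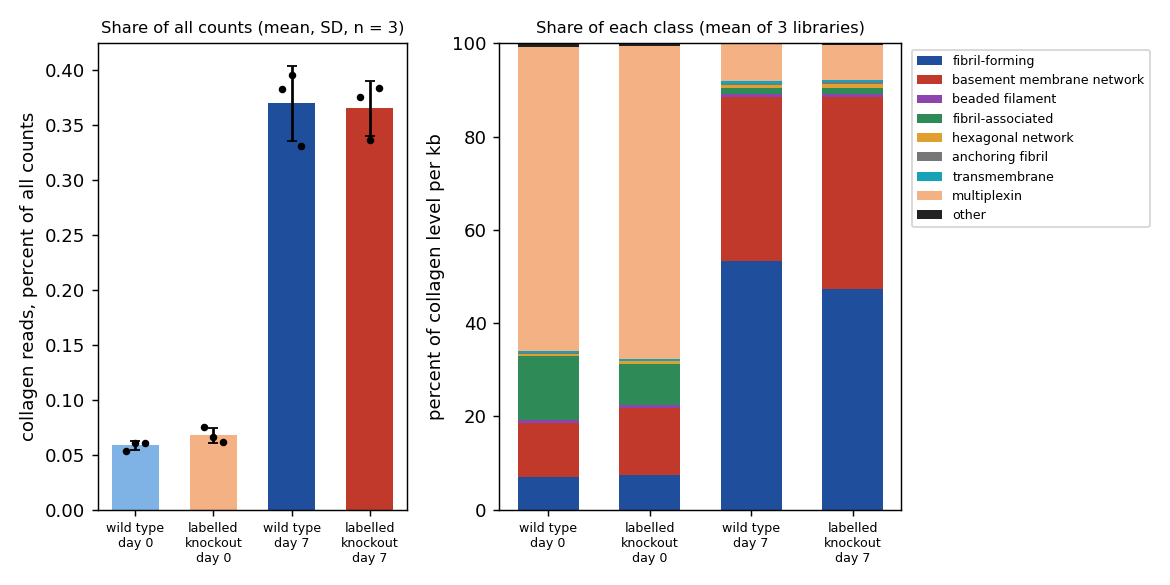
Left, collagen reads as a percent of all counts in each group, with bars for the mean, error bars for the SD and points for the 3 libraries. Right, the share of each collagen family in the summed collagen level per kb (mean of 3 libraries). The day 0 bars are mostly multiplexin, which is Col18a1 at 65.1% and 67.1%, and the day 7 bars are mostly fibril-forming and basement membrane collagens.

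The next comparison was day 7 against day 0 within each genotype, gene by gene. Of the 44 genes, 36 passed the filter on low counts. In wild type 26 were higher at day 7, 7 were lower and 3 did not pass an edgeR adjusted p of 0.05 over 19235 genes, of which 65.1% were called (32.9% higher and 32.1% lower). In the libraries labelled knockout the counts were again 26, 7 and 3, against a background of 63.4% (31.1% higher and 32.3% lower). The libraries of the 2 days did not overlap in 32 of the genes in wild type and 33 in the libraries labelled knockout, where 72% and 69.5% of all genes did not. The median log2 difference of the 36 genes was 3.57 in wild type and 3.43 in the libraries labelled knockout (3.57 and 3.27 with genes at 0 in a group set to their bound), and that of all genes tested was 0.01 and -0.02. Of these genes, 25 were higher in both genotypes, 7 were lower in both, Col19a1 passed in wild type alone, Col13a1 passed in the libraries labelled knockout alone, and Col2a1 and Col22a1 passed in neither. In 11 genes per genotype a whole group held 3 counts or fewer. Those genes entered the test through the other day, so for them a ratio of summed, depth-scaled counts is given in place of a fitted fold change, as a lower bound against 3 counts over the group where there was no count. Such a gene could pass the filter only by counts on the other day, so its test over the days was selected for a difference. Its edgeR adjusted p, where printed, carries that limit. The counts of calls and of genes without overlap include these genes and carry it too. With no filter on low counts, Col19a1 in wild type lost its call (edgeR adjusted p = 0.0635), and no other call of such a gene was lost.

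Markers of several cell types moved over the same days. In wild type, 7 of 7 ES cell markers were lower, and 8 of 9 mesoderm and mesenchyme markers, 8 of 11 parietal endoderm markers, 3 of 4 tested epithelial markers, 6 of 6 tested endothelial markers and 5 of 6 tested fibroblast markers were higher. In the same lists 2 parietal endoderm markers (Sox7 and Srgn), 1 epithelial marker (Epcam) and 1 fibroblast marker (Thy1) were lower. Over all genes tested in wild type, 32.9% were called higher and 32.1% lower, and the counts of every marker list stand against these shares. Summed mesoderm and mesenchyme markers ran from 259.3 to 402.4 CPM at day 0 and from 3730 to 4094 CPM at day 7, and parietal endoderm markers from 115.9 to 163.5 and from 718.2 to 825.0 CPM. Of the parietal endoderm sum at day 7, the laminin genes Lamb1 and Lama1 held 341.5 and 135.8 CPM on average. In the libraries labelled knockout the mesoderm and mesenchyme markers ran from 266.6 to 364.8 and from 3461 to 3519 CPM. The fibroblast list summed to 19.01 to 26.99 CPM at day 0 and 311.1 to 376.9 CPM at day 7, with Dpt and Fap at 0 in every group. Of the other lists, 5 of 8 tested cartilage markers were higher and 2 lower, 2 of 4 tested bone markers were lower and 1 higher, and 3 of 4 tested neural markers were lower and 1 higher. The part of these cell types in the collagen differences was not tested.

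**Figure D2:**
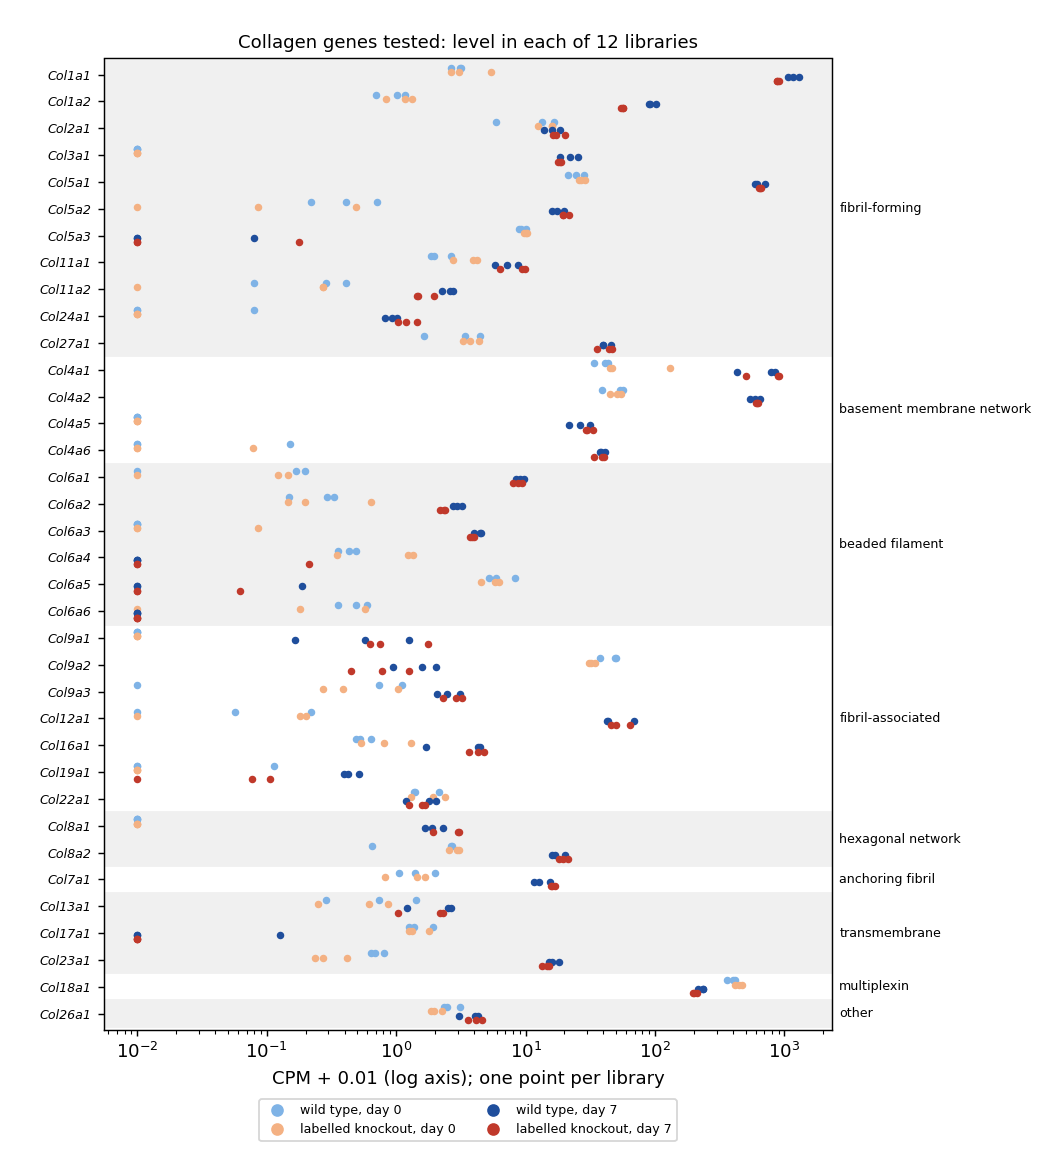
Level of the 36 tested collagen genes in each of the 12 libraries, in CPM plus 0.01 on a log axis, by collagen family. Points at the left edge are libraries with no count. Day 7 points lie to the right of day 0 points in most genes, and to the left in Col5a3, Col6a4, Col6a5, Col6a6, Col9a2, Col17a1 and Col18a1.

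Among the fibril-forming collagens, 9 of 11 were higher at day 7, 1 was lower and 1 did not pass in each genotype. Col1a1 (chr11:94936224-94953042, GRCm38), the alpha1 chain of collagen I of bone, skin and tendon, was the highest collagen per kb at day 7. It stood at 3.16, 2.64 and 3.09 CPM in wild type at day 0 and 1293, 1165 and 1070.0 CPM at day 7, and at 2.66, 5.38 and 3.04 and 872, 877 and 908 CPM in the libraries labelled knockout. Every day 7 library lay more than 100 times above every day 0 library. The log2 difference was 8.64 ± 0.26 (SE, edgeR adjusted p = 3.62e-10) in wild type and 7.92 ± 0.25 (edgeR adjusted p = 5.59e-10) in the libraries labelled knockout. Its partner Col1a2 (chr6:4504814-4541544), the alpha2 chain, rose from 1.16, 1.01 and 0.695 to 92.1, 101 and 90.3 CPM in wild type and from 1.33, 0.833 and 1.16 to 56.3, 55.02 and 56.3 CPM in the libraries labelled knockout. The days did not overlap, and the log2 differences were 6.63 ± 0.20 and 5.65 ± 0.19 (edgeR adjusted p = 4.62e-10 and 1.12e-09).

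Col3a1 (chr1:45311538-45349706), the single chain of collagen III of vessels and soft tissue, had no count in any of the 6 day 0 libraries. At day 7 it reached 18.4, 25.5 and 22.2 CPM in wild type and 18.3, 17.8 and 18.8 CPM in the libraries labelled knockout. It was at least 726-fold higher in wild type and at least 594-fold higher in the libraries labelled knockout (edgeR adjusted p = 1.03e-07 and 1.24e-07). Col3a1 could enter the test only through day 7, so these p-values carry the limit given above for such genes. Its neighbour Col5a2, which lies tail to tail with it 24615 bases away and encodes the alpha2 chain of collagen V, went from 0.438 ± 0.251 to 17.8 ± 1.88 CPM in wild type (SD, n = 3). The log2 difference was 5.28 ± 0.64 in wild type (5.88 without replicate 2 of wild type at day 0) and 6.86 ± 0.72 in the libraries labelled knockout (9.27 and 6.15 without replicate 1 or replicate 3 of day 0), with edgeR adjusted p = 2.3e-05 and 7.4e-06. Col5a1, which encodes the alpha1 chain found in all common forms of collagen V and starts the assembly of collagen I fibrils, was already at 24.8 ± 3.49 CPM at day 0 and reached 635 ± 62.5 CPM in wild type, a log2 difference of 4.68 ± 0.12 (edgeR adjusted p = 1.19e-10). The third chain of collagen V went the other way.

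Col5a3 (chr9:20770050-20815067) was at 9.99, 9.18 and 8.89 CPM in wild type at day 0 and 0.0694, 0 and 0 CPM at day 7, and at 9.68, 10.1 and 10.2 and 0, 0.169 and 0 CPM in the libraries labelled knockout. All day 0 libraries were near 10 CPM and all day 7 libraries were near 0. The wild-type counts, 896 against 3, gave a level 423-fold lower at day 7 (exact 95% interval 144 to 2056, counting error only, edgeR adjusted p = 3.52e-06). In the libraries labelled knockout the log2 difference was -7.51 ± 0.76 (edgeR adjusted p = 5.78e-06), and it rested on replicate 2 at day 7, which held all 5 counts (-11.50 without it, and -6.85 without replicate 1). Of the collagen V genes, Col5a1 and Col5a3 were above 5 CPM in every library at day 0, and Col5a1 and Col5a2 at day 7.

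Of the other fibril-forming genes, Col27a1, a large collagen of cartilage, rose from 3.14 ± 1.40 to 41.8 ± 3.24 CPM in wild type (edgeR adjusted p = 7.25e-07). Col11a1 and Col11a2, chains of the cartilage collagen XI, rose by 1.77 ± 0.26 and 3.28 ± 0.69 on the log2 scale in wild type (edgeR adjusted p = 0.000104 and 0.00152). For Col11a2 this was 3.87 without replicate 2 of day 0, and in the libraries labelled knockout it was 3.15 ± 0.72, or 4.13 with the sum of the deposited table that divides reads by allele (the summed table). Col24a1 had 3 counts in all at day 0 in wild type and 123 at day 7, a ratio of 28.9 (exact 95% interval 9.67 to 142, edgeR adjusted p = 0.000529). All 3 of these day 0 counts were in replicate 2, and without it the fitted log2 difference went from 4.80 to 8.01. Col2a1, the chain of cartilage collagen II, did not pass in either genotype: it was at 5.95, 13.5 and 16.7 CPM at day 0 and 16.05, 18.3 and 13.8 CPM at day 7 in wild type, a log2 difference of 0.42 ± 0.29 (edgeR adjusted p = 0.235). The lowest day 0 level came from 149 counts in replicate 1, for which the summed table holds 378. The 2 days overlapped in wild type.

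**Figure D3:**
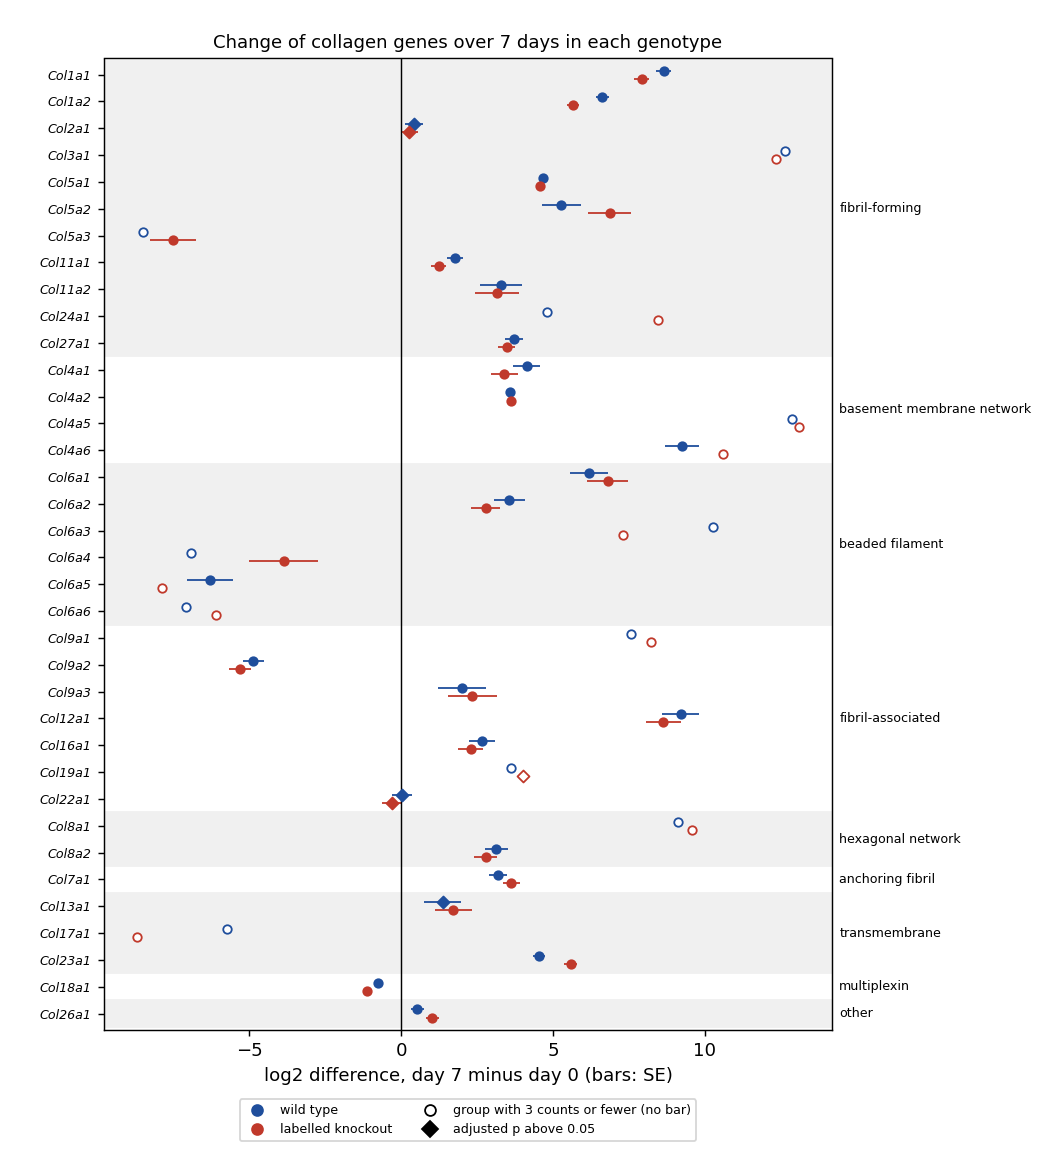
Log2 difference of each tested collagen gene between day 7 and day 0 in wild type and in the libraries labelled knockout, with SE bars. Open points mark genes with 3 counts or fewer in a whole group, whose fitted size is no bound, and diamonds mark genes that did not pass. The genotypes lie on the same side of 0 in every gene but Col22a1, at 0.02 and -0.32, which passed in neither.

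All 4 basement membrane genes that were tested were higher at day 7 in both genotypes, and all 6 stand in head-to-head pairs in the genome. Col4a1 and Col4a2, the chains found in nearly all basement membranes, start 21 bases apart within overlapping ends on chromosome 8, Col4a6 and Col4a5 start 1309 bases apart on the X chromosome, and Col4a4 and Col4a3 start 72 bases apart on chromosome 1. The promoter windows of both pairs that rose, from 250 bases before to 50 after the start, are printed here from RefSeq (GRCm38.p6) because both genes of a pair were called higher together. Capitals mark exact matches, on either strand, to the GC box GGGCGG. They also mark the CCAAT box and the TATA box, which was searched as TATAAA, and no match shown overlaps another.

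Col4a1 (chr8:11312777-11313076, minus strand): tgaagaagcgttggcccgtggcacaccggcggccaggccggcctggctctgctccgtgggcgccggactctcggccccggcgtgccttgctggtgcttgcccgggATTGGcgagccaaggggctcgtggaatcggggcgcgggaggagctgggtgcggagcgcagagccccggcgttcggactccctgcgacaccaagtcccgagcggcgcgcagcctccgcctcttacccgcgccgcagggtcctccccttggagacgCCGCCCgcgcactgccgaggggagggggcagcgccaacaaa
Col4a2 (chr8:11312555-11312854, plus strand): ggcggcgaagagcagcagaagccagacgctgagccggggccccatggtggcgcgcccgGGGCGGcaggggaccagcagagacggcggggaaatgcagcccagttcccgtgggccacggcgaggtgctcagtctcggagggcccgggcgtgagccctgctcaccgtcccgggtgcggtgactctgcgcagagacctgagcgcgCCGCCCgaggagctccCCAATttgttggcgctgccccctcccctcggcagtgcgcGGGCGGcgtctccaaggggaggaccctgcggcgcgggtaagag
Col4a6 (chrX:141474027-141474326, minus strand): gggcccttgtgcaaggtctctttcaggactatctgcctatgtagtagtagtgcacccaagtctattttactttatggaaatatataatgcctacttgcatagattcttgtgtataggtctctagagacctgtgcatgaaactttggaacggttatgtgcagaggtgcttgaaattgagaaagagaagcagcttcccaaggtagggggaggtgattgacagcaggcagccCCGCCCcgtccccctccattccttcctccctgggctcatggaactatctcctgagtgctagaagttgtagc
Col4a5 (chrX:141475169-141475468, plus strand): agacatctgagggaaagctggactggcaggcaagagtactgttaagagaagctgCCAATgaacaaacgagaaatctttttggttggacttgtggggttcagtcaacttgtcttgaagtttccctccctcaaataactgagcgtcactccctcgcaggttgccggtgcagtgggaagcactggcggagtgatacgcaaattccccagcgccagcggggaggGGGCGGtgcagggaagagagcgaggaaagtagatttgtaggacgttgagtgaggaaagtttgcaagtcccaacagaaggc

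The Col4a1 and Col4a2 windows share 78 bases of genome, the last 78 of each as its own strand reads them, and both are rich in G and C, at 74.0% and 73.7% against a median of 52.7% over all windows of this length. The Col4a6 and Col4a5 windows do not overlap and hold 48.3% and 52.7%. A GC box was found in 23 of 38 collagen windows (60.5%) and in 35.7% of all 32851 windows, a CCAAT box in 34.2% and 37.4%, and a TATA box in 13.2% and 13.6%. Of the windows of genes that were higher at day 7 in wild type, 16 of 23 held a GC box, and of the windows of genes that were lower, 6 of 8 did. Windows were found for 35 of the 44 genes.

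Col4a2 (chr8:11312805-11449287) rose from 39.1, 56.8 and 53.3 CPM to 595, 646 and 544 CPM in wild type and from 44.8, 50.6 and 54.3 to 615, 607 and 627 CPM in the libraries labelled knockout, with the days far apart. The log2 differences were 3.58 ± 0.14 and 3.63 ± 0.14 (edgeR adjusted p = 2.4e-09 and 2.53e-09). Col4a1 (chr8:11198423-11312826) stood at 33.7, 41.3 and 43.7 CPM and 789.9, 852 and 433 CPM in wild type, and at 129.6, 46.2 and 45.2 and 894, 505 and 913 CPM in the libraries labelled knockout. Replicate 1 of day 0 labelled knockout was high, and 1 library of each day 7 group was low, while Col4a2 was even in the same libraries. The log2 differences were 4.13 ± 0.46 and 3.39 ± 0.44 (edgeR adjusted p = 1.19e-05 and 4.51e-05), and without replicate 1 of day 0 the latter was 4.10.

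The size of the Col4a1 difference depended on which deposited table was read. A second table divides the reads of each gene into genome 1, genome 2 and unassigned, and its sum differed from the whole-genome count of Col4a1 by more than a ratio of 5 to 4 in 9 of 12 libraries, from 0.528 to 2.52 times. Over all collagen genes with at least 100 counts in a library, 179 of 197 values lay nearer than that and 18 did not. With the summed table the log2 difference of Col4a1 was 2.44 in wild type and 2.80 in the libraries labelled knockout, still called in both (edgeR adjusted p = 1.53e-06 and 5.77e-07). The levels of Col4a1 are therefore uncertain to about that extent, and those of Col4a2 are not, at 0.941 to 0.999 times.

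Col4a5 (chrX:141475385-141689234), a chain of the basement membranes of kidney and smooth muscle, had no count at day 0 in any library. It reached 21.6, 31.2 and 26.2 CPM in wild type and 29.6, 29.3 and 32.9 CPM in the libraries labelled knockout at day 7, at least 874-fold and 990-fold higher (edgeR adjusted p = 1.14e-07 and 1.07e-07). Col4a6 (chrX:141165403-141474076), its partner in smooth muscle basement membrane, had 6 counts in wild-type replicate 2 and 2 in replicate 1 labelled knockout at day 0, and none in the other 4 libraries. At day 7 it was at 37.9, 41.02 and 37.9 and 39.2, 33.6 and 40.5 CPM. Its log2 difference in wild type was 9.25 ± 0.56 (edgeR adjusted p = 7.96e-08; 13.42 without replicate 2 of day 0, and also with the summed table), and in the libraries labelled knockout the counts gave a ratio of 1844 (exact 95% interval 510.3 to 15240). Col4a3 and Col4a4, the chains of mature glomerular basement membrane, were not tested and did not exceed 18 and 33 counts in any library.

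Collagen VI split into rising and falling genes. Col6a1, Col6a2 and Col6a3, whose chains form the classic collagen VI trimer of muscle and connective tissue, were higher at day 7 in both genotypes, and Col6a4, Col6a5 and Col6a6, which encode alternatives to the Col6a3 chain, were lower in both. Col6a1 (chr10:76708792-76726168) went from 0.160, 0.188 and 0 to 8.44, 9.07 and 9.68 CPM in wild type and from 0.136, 0.114 and 0 to 8.69, 9.32 and 7.93 CPM in the libraries labelled knockout. The log2 difference was 6.18 ± 0.63 in wild type (6.85 without replicate 2 of day 0) and 6.79 ± 0.67 in the libraries labelled knockout (7.48 and 6.07 without replicate 1 or 3 of day 0), with edgeR adjusted p = 6.16e-06 and 4.9e-06. Col6a3 (chr1:90765923-90843971) had no count in wild type at day 0 and 3.98, 4.48 and 4.41 CPM at day 7, at least 138-fold higher (edgeR adjusted p = 4.11e-06). In the libraries labelled knockout it had 2 counts in all at day 0 and 3.87, 3.72 and 3.97 CPM at day 7, a ratio of 187 (exact 95% interval 51.5 to 1552). Col6a2 rose by 3.56 ± 0.50 in wild type and 2.78 ± 0.48 in the libraries labelled knockout (3.80 without replicate 3 of day 0) on the log2 scale (edgeR adjusted p = 7.75e-05 and 0.000377).

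The 3 falling collagen VI genes lie next to each other on the minus strand of chromosome 9, with gaps of 27918 and 28811 bases. Col6a5 (chr9:105856078-105960643) was the highest of them, at 8.23, 5.96 and 5.25 CPM in wild type at day 0 and 0, 0.178 and 0 CPM at day 7, and at 6.21, 4.504 and 5.78 and 0.0519, 0 and 0 CPM in the libraries labelled knockout. The days did not overlap. The wild-type log2 difference was -6.30 ± 0.76 (edgeR adjusted p = 2.38e-05), resting on 12 counts in replicate 2 at day 7 (-10.73 without it, and -7.73 with the summed table), and in the libraries labelled knockout the level was 276-fold lower (exact 95% interval 76.0 to 2284, edgeR adjusted p = 1.96e-05). Col6a4 (chr9:105989454-106096783) was at 0.479, 0.424 and 0.347 CPM at day 0 in wild type and had no count at day 7, at least 18.9-fold lower (edgeR adjusted p = 0.0049). In the libraries labelled knockout it went from 1.23, 0.341 and 1.35 to 0, 0.203 and 0 CPM, a log2 difference of -3.87 ± 1.14 (edgeR adjusted p = 0.0145; -8.15 without replicate 2 of day 7 and -3.24 without replicate 1). Col6a6 (chr9:105687809-105828160) was at 0.479, 0.589 and 0.347 and 0.170, 0.568 and 0 CPM at day 0 and had no count in any day 7 library, at least 22.2-fold lower in wild type and at least 6.80-fold lower in the libraries labelled knockout (edgeR adjusted p = 0.0123 and 0.0347). Its days overlapped in the libraries labelled knockout, because replicate 3 had no count at day 0, and that call was lost with the replicate block, or when replicate 1 or 2 of day 0 or any 1 library of day 7 was left out (edgeR adjusted p = 0.0552 to 0.104).

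Of the 7 tested fibril-associated collagens, 5 were higher and 1 lower in wild type, and 4 and 1 in the libraries labelled knockout. Col9a2 (chr4:121039385-121055322), the alpha2 chain of collagen IX of cartilage and eye, was at 49.8, 49.5 and 37.3 CPM in wild type at day 0 and 1.57, 2.02 and 0.929 CPM at day 7, and at 30.8, 34.1 and 32.1 and 0.441, 1.250 and 0.774 CPM in the libraries labelled knockout. The days did not overlap, and the log2 differences were -4.88 ± 0.34 and -5.32 ± 0.36 (edgeR adjusted p = 2.74e-07 and 2.15e-07). Its partner chain Col9a1 (chr1:24177610-24252684) did the opposite, with no count in any day 0 library and 1.249, 0.564 and 0.155 and 0.623, 0.743 and 1.74 CPM at day 7, at least 22.6-fold and 32.7-fold higher (edgeR adjusted p = 0.00338 and 0.00214). The wild-type libraries were uneven in Col9a1 at day 7. The third chain, Col9a3, was higher at day 7 by 2.0 ± 0.78 in wild type and 2.34 ± 0.80 in the libraries labelled knockout on the log2 scale (edgeR adjusted p = 0.042 and 0.0243), and both calls were lost under the replicate block (0.0764 and 0.0506) and without single libraries. Its log2 difference was 2.76 without replicate 2 of wild type at day 0 and 3.15 without replicate 1 labelled knockout at day 0. At day 0 only Col9a2 of the collagen IX genes was above 2 CPM in any library.

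Col12a1 (chr9:79598991-79718831), which links fibrils to the surrounding matrix in dense connective tissue, went from 0, 0.0471 and 0.208 to 43.5, 68.2 and 42.3 CPM in wild type and from 0.170, 0 and 0.193 to 45.4, 49.99 and 64.7 CPM in the libraries labelled knockout. Day 0 values rested on 8 counts in all in wild type and 13 in the libraries labelled knockout. The log2 difference was 9.20 ± 0.61 in wild type (10.62 without replicate 3 of day 0, and 11.11 with the summed table) and 8.63 ± 0.58 in the libraries labelled knockout (10.06 with the summed table), with edgeR adjusted p = 1.71e-07 and 1.97e-07. Col16a1 rose from 0.545 ± 0.0809 to 3.48 ± 1.54 CPM in wild type (edgeR adjusted p = 0.000191). Col19a1, which lies tail to tail with Col9a1 9206 bases away, had 3 counts in all at day 0 and 60 at day 7 in wild type (ratio 14.1, exact 95% interval 4.60 to 70.4, edgeR adjusted p = 0.0246, 0.0635 with no filter on low counts and 0.052 in DESeq2), and 0 and 5 counts in the libraries labelled knockout. The wild type call was also lost without any 1 of 5 of the 6 libraries (edgeR adjusted p = 0.055 to 0.091). All 3 day 0 counts were in replicate 3, and without it the fitted log2 difference went from 3.61 to 7.01 (edgeR adjusted p = 0.0117). Col22a1, a collagen of tissue junctions, was at 1.62 ± 0.430 and 1.66 ± 0.432 CPM in wild type (edgeR adjusted p = 0.953). Col14a1 and Col20a1 were not tested and stayed at or below 25 and 24 counts in any library.

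In the smaller families, the leading gene per kb at day 7 was in each case a gene that was higher at day 7, except Col18a1. Col8a2 (chr4:126286793-126314330), a chain of the hexagonal lattice of the corneal Descemet membrane, rose from 0.639, 2.68 and 2.64 to 16.8, 20.01 and 16.1 CPM in wild type and from 2.93, 2.57 and 3.04 to 21.4, 19.5 and 18.3 CPM in the libraries labelled knockout (log2 3.13 ± 0.38 and 2.79 ± 0.38, edgeR adjusted p = 2.66e-05 and 5.83e-05). Col8a1 (chr16:57624258-57754737), the other collagen VIII chain, had no count at day 0 and 1.90, 2.29 and 1.66 and 3.01, 3.04 and 1.94 CPM at day 7, at least 65.6-fold and 87.0-fold higher (edgeR adjusted p = 1.76e-05 and 1.29e-05). Both genes lay without overlap between days. Col7a1 (chr9:108953586-108984875), which forms the anchoring fibrils below the epidermis, went from 1.997, 1.04 and 1.39 to 12.6, 15.5 and 11.6 CPM in wild type and from 0.818, 1.44 and 1.66 to 16.1, 17.02 and 15.8 CPM in the libraries labelled knockout (log2 3.18 ± 0.29 and 3.63 ± 0.29, edgeR adjusted p = 2.26e-06 and 9.1e-07). Col10a1, the collagen of hypertrophic cartilage, was not tested and had at most 3 counts in a library.

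The transmembrane collagens moved in both directions. Col23a1 (chr11:51289920-51583918) rose from 0.679, 0.8004 and 0.625 to 15.98, 18.1 and 15.1 CPM in wild type and from 0.409, 0.227 and 0.265 to 13.5, 14.6 and 15.3 CPM in the libraries labelled knockout (log2 4.53 ± 0.20 and 5.58 ± 0.22, edgeR adjusted p = 7.79e-09 and 3.36e-09). Col17a1 (chr19:47646344-47692094), the hemidesmosome collagen of epidermal basal cells, fell from 1.36, 1.93 and 1.251 to 0, 0 and 0.116 CPM in wild type and from 1.77, 1.325 and 1.253 CPM to no count in the libraries labelled knockout. It was 71.8-fold lower in wild type (exact 95% interval 24.1 to 352) and at least 47.3-fold lower in the libraries labelled knockout (edgeR adjusted p = 0.000608 and 0.000318). Col13a1 was at 0.807 ± 0.570 and 2.11 ± 0.791 CPM in wild type (edgeR adjusted p = 0.0645) and rose by 1.72 ± 0.62 on the log2 scale in the libraries labelled knockout (edgeR adjusted p = 0.0304, lost at 0.0639 to 0.103 without 1 of 4 libraries and at 0.194 with the summed table). Col25a1, a collagen of neurons, was not tested and had at most 22 counts in a library.

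Col18a1 (chr10:77052178-77166548) was the collagen with the highest level per kb at day 0 and fell in every comparison of days. It was at 358, 402 and 412 CPM in wild type at day 0 and 236, 236 and 214 CPM at day 7, and at 443, 469 and 418 and 201, 210.4 and 197 CPM in the libraries labelled knockout. The days did not overlap, and the log2 differences of -0.77 ± 0.07 and -1.13 ± 0.07 were small beside those of most other collagens (edgeR adjusted p = 3.33e-06 and 1.59e-07). In the deposited transcript table, the transcript from the upstream start, Col18a1-202, took 95.9 ± 0.422% of the gene's counts in wild type at day 0 and 96.1 ± 0.341% at day 7, and 95.7 ± 0.345% and 96.0 ± 0.421% in the libraries labelled knockout. Col15a1, the other multiplexin, was not tested and had at most 11 counts in a library. Col26a1 (chr5:136741759-136883209) was at 2.48, 3.11 and 2.33 and 3.08, 4.28 and 4.06 CPM in wild type and at 2.25, 1.85 and 1.95 and 4.10, 3.58 and 4.61 CPM in the libraries labelled knockout. Its days overlapped in wild type, and the log2 difference of 0.52 ± 0.21 there (edgeR adjusted p = 0.0462) was lost in most alternatives (0.0462 against 0.058 to 0.141), while 1.02 ± 0.21 in the libraries labelled knockout was not (edgeR adjusted p = 0.00147). Col28a1 had no count in any library.

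The comparison of genotypes asked whether collagen genes differed between libraries labelled knockout and wild type of the same day. None of the 36 genes passed an edgeR adjusted p of 0.05 at day 0, at day 7 or in the genotype by day interaction, where 0.13%, 0.026% and 0.026% of all genes did. At an unadjusted edgeR p under 0.05 there were 3, 6 and 5 collagen genes, against 11.9%, 8.18% and 6.86% of all genes. DESeq2 called 1 collagen gene in each of the 3 comparisons, Col23a1 at day 0 and Col1a2 at day 7 and in the interaction. DESeq2 also called more genes in all, with 329 of 16209 at day 0, 133 of 19497 at day 7 and 129 of 17522 in the interaction. The groups did not overlap in 6 genes at day 0 and 9 at day 7, against 15.7% and 19.5% of all genes. The SE of the log2 differences had a median of 0.391 at day 0 and 0.333 at day 7 over the 28 and 31 genes without a group at the floor. Differences of 2-fold and more could therefore miss the threshold in many genes. Sirt7 itself, at a log2 difference of 0.951 ± 0.214 at day 0, had an edgeR adjusted p of 0.182, and Col23a1, at -1.23 at day 0, missed it too. A p that missed the threshold does not show that the genotypes were alike. Of the marker lists, 1 ES cell marker (Esrrb) and 2 endothelial markers (Pecam1 and Tek) were called higher in the libraries labelled knockout at day 0. Esrrb was at 231.1 CPM against 43.84 CPM in wild type there, a log2 difference of 2.40 ± 0.22 (edgeR adjusted p = 0.001475). It was also called in the interaction, at -2.92 ± 0.32 (edgeR adjusted p = 0.0152). The part of these markers was not tested.

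Col1a2 had the smallest p at day 7. It was at 92.1, 101 and 90.3 CPM in wild type and 56.3, 55.02 and 56.3 CPM in the libraries labelled knockout, with all 3 of the latter below all 3 of the former. The log2 difference, labelled knockout minus wild type, was -0.76 ± 0.15 (unadjusted p = 0.00043, edgeR adjusted p = 0.235). It passed in DESeq2 (-0.76, adjusted p = 1.66e-08) and in edgeR with only the 6 day 7 libraries (-0.73, adjusted p = 0.0151), and in edgeR's other alternatives the adjusted p ran from 0.171 to 0.55. The interaction, the rise labelled knockout minus the rise in wild type, was -0.98 ± 0.25 (edgeR adjusted p = 0.385, DESeq2 adjusted p = 0.0272). Col1a1 did not overlap between genotypes at day 7 either, with a log2 difference of -0.41 ± 0.18 (edgeR adjusted p = 0.591), with an interaction of -0.72 ± 0.28 (edgeR adjusted p = 0.639).

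At day 0 the smallest p belonged to Col23a1. It stood at 0.679, 0.8004 and 0.625 CPM in wild type and 0.409, 0.227 and 0.265 CPM in the libraries labelled knockout, which were lower in all 3. The log2 difference was -1.23 ± 0.23 (edgeR adjusted p = 0.109), -1.27 in DESeq2 (adjusted p = 0.0275), and -1.5 without replicate 1 labelled knockout (edgeR adjusted p = 0.0419). At day 7 it was -0.18 ± 0.17 (edgeR adjusted p = 0.862). Col18a1 had log2 differences of 0.18 ± 0.07 at day 0 and -0.17 ± 0.07 at day 7, without overlap at either day, and its interaction was -0.35 ± 0.10 (edgeR adjusted p = 0.48). The day 0 log2 difference of Col11a1 was 0.77 ± 0.26 (edgeR adjusted p = 0.29). None of these passed in edgeR with all 12 libraries.

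**Figure D4:**
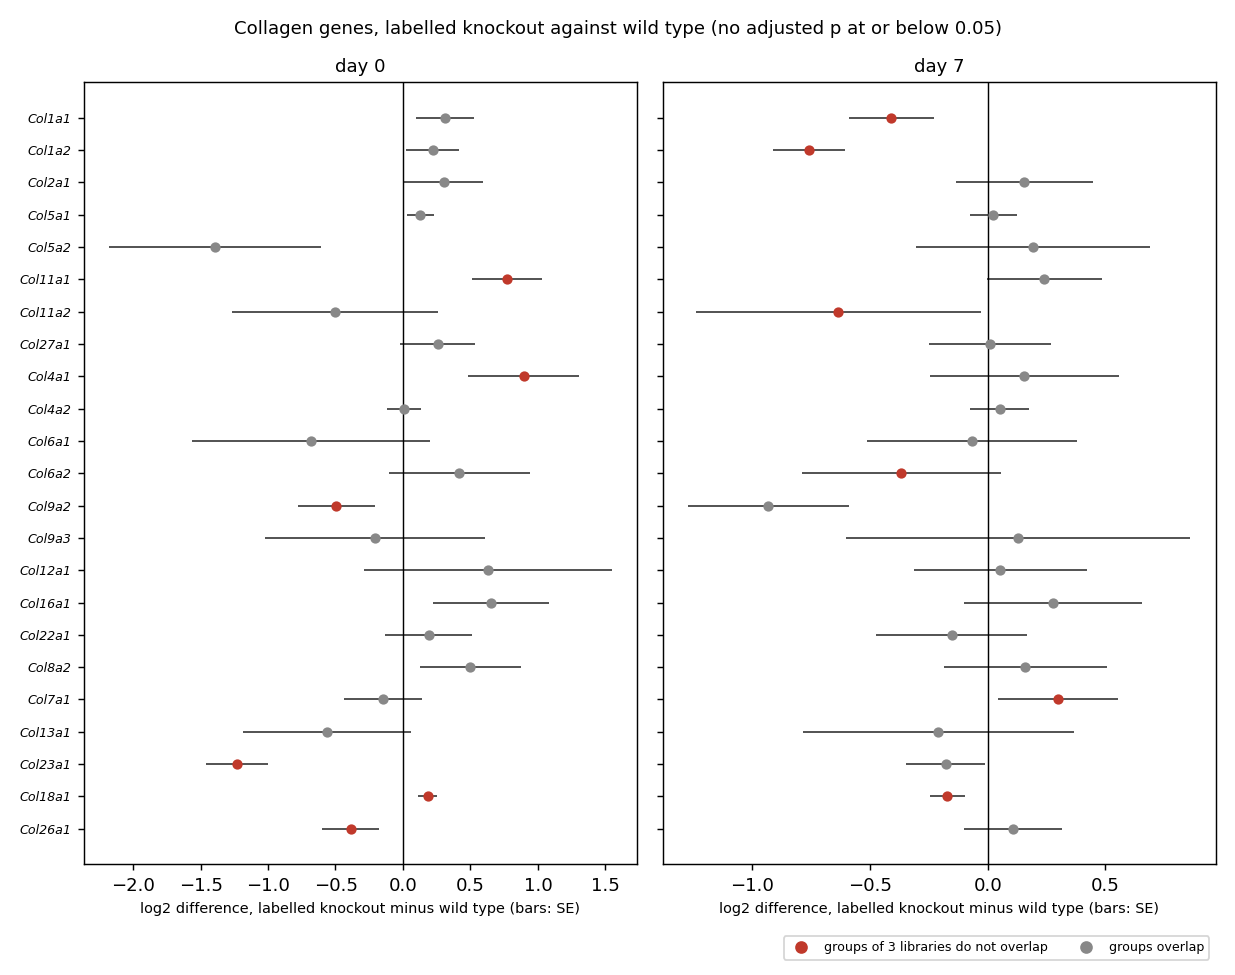
Log2 difference, labelled knockout minus wild type, at day 0 and day 7 with SE bars, for the 23 tested collagen genes with more than 3 counts in every group. Red points are genes whose 2 groups of 3 libraries do not overlap. Col23a1 is lowest relative to its SE at day 0 and Col1a2 at day 7, and no gene passed the adjusted test.

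Chains that assemble into one molecule, or as Col5a1 and Col3a1 are found in the same fibrils, were set side by side per kb of transcript. The ratio of Col1a1 to Col1a2 was 2.94 ± 0.931 in wild type and 3.33 ± 2.18 in the libraries labelled knockout at day 0, and 11.2 ± 1.24 and 14.3 ± 0.297 at day 7 (SD, n = 3). In the assembled collagen I of bone and skin there are 2 alpha1 chains for each alpha2 chain. With the union of all annotated exons as length, which makes Col1a2 longer, the day 7 ratios were 23.6 and 30, so the level of the ratio depends on the length used. The ratio of Col5a1 to Col5a2 at day 7 was 28.2 ± 0.746 and 25.1 ± 1.70, that of Col6a1 to Col6a2 was 2.95 ± 0.0435 and 3.63 ± 0.197, and that of Col6a1 to Col6a3 was 4.64 ± 0.187 and 4.94 ± 0.559. Col8a2 exceeded Col8a1 by 10.7 ± 0.615 and 9.03 ± 1.86 times. The X-linked pair had a Col4a5 to Col4a6 ratio of 0.686 ± 0.0986 and 0.827 ± 0.0601. The levels of these ratios depend on the length used as well. With union exon length they were 40.4 and 36.0 for Col5a1 to Col5a2 and 5.82 and 7.16 for Col6a1 to Col6a2. For Col6a1 to Col6a3 they were 5.77 and 6.15, for Col8a2 to Col8a1 15.9 and 13.4, and for Col4a5 to Col4a6 0.8 and 0.966.

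Of 10 such ratios compared between genotypes at day 7, groups did not overlap in 5, which were Col1a1 to Col1a2, Col5a1 to Col5a2, Col5a1 to Col3a1, Col6a1 to Col6a2 and Col11a1 to Col11a2. Each gave p = 0.1 in an exact two-sided permutation test, the smallest that 3 against 3 allows, and 0.2 after Benjamini-Hochberg adjustment over the 10. Of all single genes tested, 19.5% did not overlap between genotypes at day 7, and no such share was computed over ratios of other genes. Some of these ratios share a chain, such as Col5a1, so they are not independent of each other. The ratio of Col4a1 to Col4a2 was 1.12 ± 0.297 and 1.22 ± 0.350 at day 7 in the whole-genome table and 0.814 ± 0.163 and 0.935 ± 0.0741 in the summed table, and 0.783 ± 0.0667 against 1.80 ± 0.0203 in wild type at day 0. In wild type the ratio was thus higher at day 7 in one table and lower in the other.

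The hybrid background let reads be assigned to 1 parental genome where the strains differ. The deposited names are genome 1 and genome 2 and do not say which strain each is. At day 7, 23 collagen genes had at least 200 assigned reads: 8 had a genome 2 share under 5%, 2 had a share over 95%, and 13 lay between. Of all 11700 genes at that depth, 45.3% lay under 5% and 7.03% over 95%. Col4a5 and Col4a6 had no genome 1 read among 2019 and 4827, which allows a genome 1 share of up to 0.149% and 0.0622%, and the median over 383 X-linked genes was a genome 2 share of 97.6%. Col6a1, Col8a2, Col13a1 and Col8a1 had no genome 2 read among 1539, 2621, 268 and 280, which allows up to 0.195%, 0.114%, 1.12% and 1.07%. Genes within 2 Mb had a median share of 0 beside Col6a1 and Col13a1, 0.0156% beside Col8a2 and 4.22% beside Col8a1. Of these neighbours, 43 of 45 beside Col6a1, 37 of 38 beside Col13a1 and 32 of 41 beside Col8a2 lay under 5%, but only 11 of 21 beside Col8a1.

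**Figure D5:**
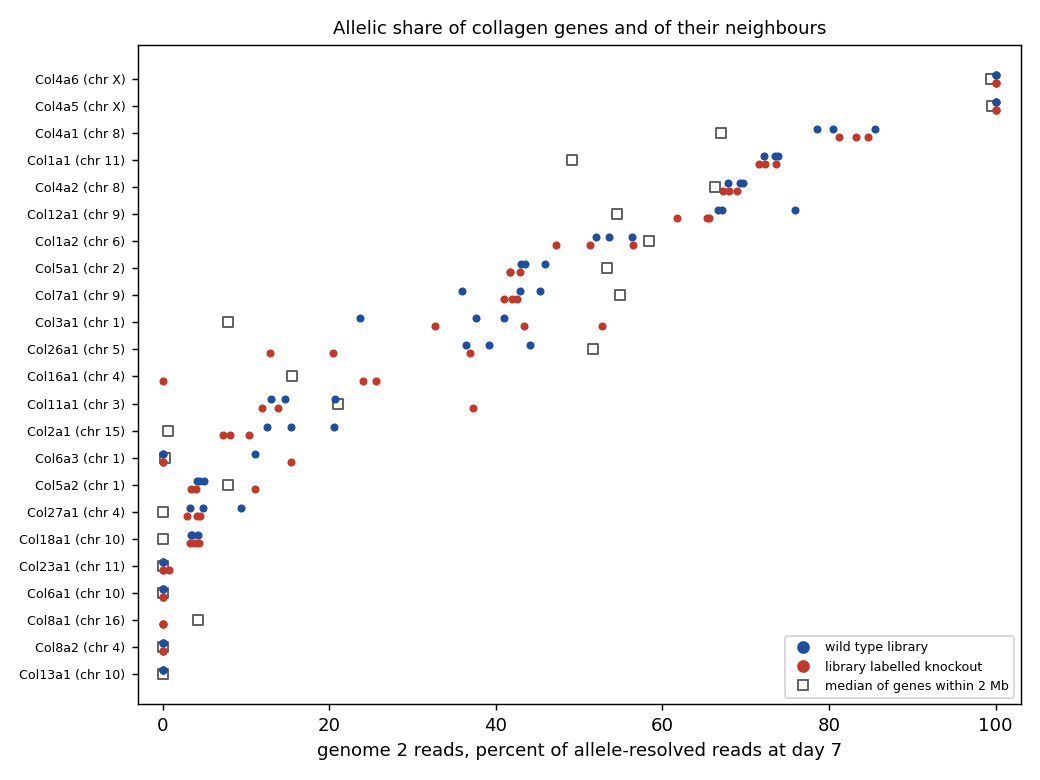
Percent of assigned reads that fell on genome 2 at day 7 for the 23 collagen genes with at least 200 such reads, in each library with at least 20 reads, with the median of genes within 2 Mb as open squares. Points are near 0 in the genes at the bottom and at 100 in Col4a5 and Col4a6, and Col1a1 lies to the right of its neighbours.

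Col1a1 was the 1 collagen gene called for a change of allelic balance. Its genome 2 share was 16.2, 30 and 50% in wild type and 39.3, 31.6 and 34.1% in the libraries labelled knockout at day 0, over 121 and 110 reads in all, and 73.9, 73.5 and 72.1% and 73.6, 72.3 and 71.5% at day 7. All day 7 libraries lay above all day 0 libraries, and the median of its 48 neighbours was 49.1% at day 7. The log2 ratio of genome 2 to genome 1 was higher at day 7 by 2.30 ± 0.21 in the libraries labelled knockout (edgeR adjusted p = 0.00678, and 0.0272 to 0.0473 with 1 library left out) and by 2.63 ± 0.51 in wild type (edgeR adjusted p = 0.0710, not called). Of 10 collagen genes tested per genotype, 1 was called in the libraries labelled knockout and none in wild type, where 2.09% and 2.24% of all genes were called. In the libraries labelled knockout only 9 of the 10 had reads of both genomes. The other, Col8a2, had no genome 2 read, so its test could not show a change. At a minimum of 50 reads per library Col1a1 could not be tested, since its lowest day 0 library held 24 reads in wild type and 28 in the libraries labelled knockout.

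Other collagen genes had shares in between. At day 7 the genome 2 share of Col4a1 was 81.5 ± 3.64% and 83.04 ± 1.75%, of Col4a2 68.97 ± 0.965% and 68.1 ± 0.791%, of Col12a1 69.9 ± 5.20% and 64.2 ± 2.13%, of Col1a2 54 ± 2.19% and 51.7 ± 4.63%, and of Col5a1 44.1 ± 1.52% and 42.1 ± 0.647% in wild type and in the libraries labelled knockout (SD, n = 3). The tail-to-tail neighbours Col3a1 and Col5a2 differed from each other, at 34.1 ± 9.13% and 4.43 ± 0.418% in wild type. Col18a1 was at 2.96 ± 0.452% at day 0 and 3.71 ± 0.402% at day 7 in wild type, in a region where 42 of 44 neighbours lay under 5%. Between genotypes at day 7, none of 20 collagen genes tested was called in allelic balance, and 0% of 11032 genes were. Only 15 of the 20 had reads of both genomes in both groups. Col4a5, Col4a6, Col6a1 and Col8a2 had reads of 1 genome alone, so their tests could not show a change. Col23a1 had no genome 2 read in wild type and 2 in the libraries labelled knockout.

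The genes that modify, cut, bind and degrade collagen were followed as lists, in which no gene was called between genotypes. Of all genes tested, 32.9% were called higher and 32.1% lower over the days in wild type, and 31.1% and 32.3% in the libraries labelled knockout. Of 19 tested genes for chain modification and folding, 14 were higher and 2 lower at day 7 in wild type, and 15 and 2 in the libraries labelled knockout. Fkbp10, a chaperone of procollagen, rose from 24.7 ± 1.54 to 103 ± 5.76 CPM in wild type (edgeR adjusted p = 2.23e-09). Creb3l1, a transcription factor of collagen secretion, rose from 18.6 ± 3.40 to 234 ± 18.5 CPM (edgeR adjusted p = 3.74e-09). P4ha1 and P4hb, subunits of the prolyl hydroxylase that stabilises the triple helix, rose by 1.92 ± 0.10 and 0.91 ± 0.05 on the log2 scale (edgeR adjusted p = 1.81e-08 and 3.57e-08), while P4ha3 and Crtap were the 2 that fell.

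Of 14 tested genes for procollagen processing and crosslinking, 9 were higher and 3 lower at day 7 in each genotype, or 12 of 14 called where 65.1% and 63.4% of all genes were. Adamts2, which removes the N-propeptide, rose from 1.13 ± 0.165 to 138 ± 9.65 CPM in wild type, and Bmp1, which removes the C-propeptide, from 4.36 ± 0.809 to 132 ± 16.8 CPM (edgeR adjusted p = 1.27e-10 and 4.74e-10). The crosslinking oxidase Loxl1 rose by 3.46 ± 0.15 on the log2 scale (edgeR adjusted p = 5.27e-09). Pcolce2, an enhancer of C-propeptide removal, fell from 114 ± 18.6 to 17.7 ± 1.69 CPM (edgeR adjusted p = 8.18e-09), and Adamts14 and Pcolce fell too.

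Of 8 tested collagen receptors, 5 were higher and 1 lower in wild type, and 5 and 2 in the libraries labelled knockout, where 65.1% and 63.4% of all genes were called. The integrin subunit Itgb1 rose from 145 ± 5.51 to 678 ± 61.2 CPM in wild type, and the uptake receptor Mrc2 from 1.83 ± 0.573 to 73.2 ± 5.42 CPM (edgeR adjusted p = 3.02e-09 and 1.78e-09). The discoidin domain receptors went apart, Ddr1 by 3.22 ± 0.12 and Ddr2 by -3.11 ± 0.33 on the log2 scale (edgeR adjusted p = 1.49e-09 and 8.02e-06). Of 8 tested genes of collagen degradation, 7 were higher and 1 lower in each genotype: the membrane protease genes Mmp14 and Mmp15 rose by 3.39 ± 0.16 and 2.04 ± 0.10, and of the protease inhibitors Timp3 rose by 4.22 ± 0.13 and Timp1 was lower, at -3.12 ± 0.13 (edgeR adjusted p = 1.25e-08, 1.3e-08, 4.62e-10 and 3.33e-09). Of 11 tested genes of collagen-associated matrix, 7 were higher and 2 lower in wild type and 9 and 2 in the libraries labelled knockout, with Fn1 from 228 ± 53.9 to 1810.0 ± 286 CPM, Sparc from 286 ± 11.9 to 1220.0 ± 56.8 CPM, Hspg2 from 201 ± 5.26 to 621 ± 84.6 CPM and Bgn from 0.584 ± 0.112 to 9.57 ± 0.878 CPM in wild type (edgeR adjusted p = 2.34e-07, 7.39e-10, 5.17e-07 and 7.08e-07). The median log2 difference over the days in wild type was 1.38, 3.58, 1.63, 4.19 and 2.07 in the 5 lists, in the order given, and 0.01 over all genes tested.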

How the data were processed

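RNA-seq of 12 libraries was analysed. The submitters' processing notes name HISAT2 2.1.0 and StringTie 1.3.3, after Trimmomatic 0.36, and the builds mm10 and GRCm38. Their settings, annotation release and strand use were not given in the sources used here. What the authors deposited were expected counts, that is estimated reads per gene and per transcript, not normalized, which were whole numbers. Gene identifiers were matched to GENCODE M21 (GRCm38), all 44 collagens included. Genes were filtered with filterByExpr, scaled by TMM and tested in edgeR 4.0.16 (R 4.3.3) by the quasi-likelihood test over all 12 libraries and 4 groups, with Benjamini-Hochberg adjustment over 19235 genes and a threshold of 0.05. SE is the log2 difference divided by the root of F. Levels per kb use the spliced length of the coding transcript with the most counts. Allelic tests needed 20 assigned reads in each library and had a block per library. Totals per library set the precision, and intervals cover counting error only. DESeq2 1.42.0, RLE size factors, no filter, fewer libraries, a replicate block and the summed allele-divided table were alternatives; the last, and union exon length, were chosen after seeing the data. Scripts were tested on simulated data. Members and lists were chosen with earlier results of these data known. Genes named with values in each library were the 10 largest called rises and 6 largest called falls over the days in wild type, the leading gene per kb of each family at day 7 and genes called between genotypes or alleles; of each pathway list, the up to 4 genes of smallest adjusted p over the days in wild type were named; other genes named were chosen after their values were seen. Column-to-sample mapping used the labels' titles, and overlapping or antisense genes may share reads.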

Additional observations from a re-analysis of the deposited data

How the results depend on the processing

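Of 33 calls over the days in each genotype, 30 were called in the same direction under every alternative in which the gene was tested, and no value reversed. These calls include genes that entered the test through 1 day alone. Those lost at least once were Col9a3, Col19a1 and Col26a1 in wild type and Col6a6, Col9a3 and Col13a1 in the libraries labelled knockout. With 1 library left out, the higher calls ran from 23 to 26 in wild type and 24 to 27 in the libraries labelled knockout, and the lower calls from 7 to 7 and 6 to 7. Between genotypes, DESeq2 gave 1 lower collagen gene at day 0, 1 at day 7 and 1 in the interaction, where edgeR gave 0. EdgeR with only the 6 day 7 libraries gave 1, and leaving out single libraries gave 0 to 1 at day 0. The cause was not tested. Over all genes, edgeR called 25, 5 and 5 in the 3 comparisons, by direction 17 and 8, 1 and 4, and 0 and 5; DESeq2 called 199 and 130, 32 and 101, and 46 and 83. With only the 6 libraries of a day edgeR called 0 at day 0 and 9 at day 7, it called 16, 6 and 8 genes with the summed allele-divided values, with no filter 21, 6 and 8, and with 1 library left out 20 to 55, 6 to 13 and 0 to 15. The allelic call of Col1a1 went from 1 to 0 at a minimum of 50 reads, where it was not tested; with 1 library left out it ran from 1 to 1. The replicate numbers did not pair the libraries (correlations of deviations of -0.084 to 0.061 for equal numbers). With the replicate as a block, 24 and 7 collagen genes were called in wild type, 25 and 6 in the libraries labelled knockout, and 0 between genotypes; all genes called between genotypes were 6 at day 0, 2 at day 7 and 0 in the interaction. Depth limits genes with few counts at day 0, whose fitted changes move with single libraries.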
